A study of Mus musculus with 12 samples.

Results

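The transcripts described here are those of 10 mouse genes that carry iron into cells, store it, export it and sense it: Tfrc, Slc40a1, Fth1, Ftl1, Slc11a1, Slc11a2, Aco1, Ireb2, Hamp and Trf. They were taken from 2 tables of raw read counts by their Ensembl identifiers, and all 10 were found in both tables, among 55357 genes. The set was chosen by the counts of Tfrc and Slc40a1 in the cell libraries, which had been seen to be higher with esculetin, so the cell values below are a description and carry no test. That rule did not use the liver samples, although earlier results of these data were known when the genes were chosen. The control cell libraries it used also enter the comparison with control liver, so Tfrc and Slc40a1 are not independent of the rule there.

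Esculetin, a coumarin, was studied for its effect on lipid handling after fatty meals. Livers came from wild-type C57BL6/J male mice of 8 to 9 weeks that were gavaged daily for 7 days with 2.5% Tween-80 or with 90 mg/kg/d esculetin. All of these mice ate a control diet with 10% of its energy from fat for 4 days and then a high-fat diet with 60% for 3 days, so no liver group was free of the high-fat diet, and each liver sample held tissue of a pair of mice. RAW264.7 cells, a wild-type mouse macrophage line, received 25 ug/mL DIL-oxLDL (dye-labelled oxidized low-density lipoprotein) for 24 h with DMSO or with 40 ug/mL esculetin, so no cell group was free of oxLDL. Each of the 4 groups had 3 libraries, with 14659876 to 20346460 counts per library in liver and 13752842 to 20001959 in cells. No source states that the cell samples were separate cultures, so the p-values measure the spread between these samples, which may be technical. The hepatocyte markers Alb, Apoa1, Ttr, Fgb and Cps1 summed to at least 98299.5 CPM (counts normalised to a common library total) in every liver library and to at most 0.415 CPM in every cell library, where Apoa1, Ttr and Cps1 were at 0. The 6 macrophage markers (Adgre1, Csf1r, Cd68, Lyz2, Itgam, Ptprc) summed to 2206 to 2369 CPM in control cells and 4894 to 7392 CPM with esculetin, whereas 6 of 7 Kupffer cell markers, the resident macrophage genes of liver, were at 0 in control cells. In the liver, vehicle replicate 1 stood apart on the first principal component (44.9% of the variance), at -37.9 against -2.77 to 14.4 for the other 5 libraries.

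Iron enters most cells bound to transferrin (Trf), which docks on the transferrin receptor (Tfrc) and is taken into endosomes, from which DMT1 (Slc11a2) moves the metal into the cytosol. Ferritin, a shell of heavy (Fth1) and light (Ftl1) chains, stores it, and ferroportin (Slc40a1) is the exporter through which macrophages return iron from old red cells to the blood. Hepcidin (Hamp), a hormone made by hepatocytes, removes ferroportin from the cell surface. Inside the cell the iron regulatory proteins encoded by Aco1 and Ireb2 bind short hairpins, the iron-responsive elements (IREs), when iron is scarce. Binding in a 5′ UTR blocks translation, as in the ferritins and ferroportin, and binding in the Tfrc 3′ UTR slows the decay of the message.

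The IRE sites found in the members are shown because their UTR places each of these messages in one of these 2 modes. Transcripts of the GRCm39 annotation (GENCODE) were searched on their own strand for a C, 5 bases, the loop CAGTG, 1 base and 5 bases pairing with the first 5, in which G with T was allowed as a pair. Sites were found in 4 members, and each is printed 5′ to 3′ as 27 bases of DNA letters with the loop in capitals.
Fth1 5′ UTR, chr19:9960097-9960123, plus strand: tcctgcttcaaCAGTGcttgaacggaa
Ftl1 5′ UTR, chr7:45109204-45109230, minus strand: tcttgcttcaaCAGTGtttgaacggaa
Slc40a1 5′ UTR, chr1:45964626-45964652, minus strand: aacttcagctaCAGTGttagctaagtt
Tfrc 3′ UTR, site 1, chr16:32450038-32450064, plus strand: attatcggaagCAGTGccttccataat
Tfrc 3′ UTR, site 2, chr16:32450417-32450443, plus strand: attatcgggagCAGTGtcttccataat
Tfrc 3′ UTR, site 3, chr16:32450482-32450508, plus strand: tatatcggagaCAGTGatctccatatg
Tfrc 3′ UTR, site 4, chr16:32450529-32450555, plus strand: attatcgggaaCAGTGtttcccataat

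The 2 ferritin sites were the same at 25 of 27 positions, and Tfrc sites 1 and 2 likewise at 25 of 27. The ferroportin site matched the Fth1 site at 13 positions. The pattern was present in 0.116% of 20696 5′ UTRs and 0.598% of 20721 3′ UTRs, taking 1 transcript per gene. The other 6 members held no match, which says only that these letters are not in the annotated UTRs of those transcripts.

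In oxLDL-treated RAW264.7 cells, Tfrc and Slc40a1 were far higher with esculetin than with solvent, Fth1 was nearly doubled and Ireb2 was moderately higher, while Ftl1, Slc11a2, Aco1 and Trf overlapped between the groups. The values are CPM scaled by the trimmed mean of M-values (TMM), and 9 of the 10 genes passed the filter on low counts, Hamp being left out. Tfrc, the transferrin receptor (chr16:32427556-32451612), was at 68.0, 51.1 and 55 CPM in the solvent libraries and at 855, 1003 and 1181 CPM in the esculetin libraries. The groups lay far apart, and the lowest treated library was far above the highest control. The log2 fold change was 4.12 (SE 0.15, n = 3 against 3), a 17.4-fold difference.

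Slc40a1, the iron exporter (chr1:45947211-45965683), stood at 22.2, 21.2 and 19.4 CPM with solvent and at 141, 181 and 178 CPM with esculetin. Again no treated library came near the controls. The log2 fold change was 3.00 (SE 0.12), a 7.97-fold difference. So the messages of the main importer of transferrin iron and of the exporter were both higher in the same libraries.

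The 2 ferritin chains had different values. Fth1, whose product oxidizes iron for storage (chr19:9957911-9962462), was at 3632, 4188 and 4080 CPM with solvent and 6646, 8009 and 9001 CPM with esculetin, with no overlap and a log2 fold change of 0.99 (SE 0.12). Ftl1, the light chain that helps to form the iron core (chr7:45107367-45109308), was at 1848, 2159 and 2067 CPM against 2084, 2249 and 2270 CPM. These Ftl1 ranges overlapped, and its log2 fold change was 0.12 (SE 0.10). The ratio of Fth1 to Ftl1 counts within a library, which does not depend on scaling, was 1.97, 1.94 and 1.97 in the solvent libraries and 3.19, 3.56 and 3.96 in the esculetin libraries. Every treated library therefore had more heavy-chain than light-chain reads by a wider margin than any control. Of the ferritin pseudogene loci, Ftl1-ps1 had the most reads, 1.81% to 2.17% of the Ftl1 count in cells.

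Of the iron sensors, Ireb2, which encodes iron regulatory protein 2 (chr9:54770970-54820011), was at 172, 130 and 129 CPM with solvent and 219, 212 and 212 CPM with esculetin. The groups did not overlap, and the log2 fold change was 0.58 (SE 0.11). Aco1, whose protein is cytosolic aconitase or, without its iron-sulphur cluster, iron regulatory protein 1 (chr4:40142998-40199010), was at 56.6, 61.2 and 60.3 CPM against 53.9, 57.9 and 81.0 CPM. Its highest value was esculetin replicate 3, its lowest esculetin replicate 1, and the log2 fold change of 0.12 (SE 0.14) turned to -0.089 without esculetin replicate 3.

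The divalent metal transporters had small differences. Slc11a1, the phagosomal transporter of macrophages (chr1:74414303-74425448), was at 38.1 to 40.8 CPM with solvent and 32.5 to 33.7 CPM with esculetin, a log2 fold change of -0.25 (SE 0.09) between groups that did not overlap. Slc11a2 (chr15:100285776-100322953) ranged from 53.8 to 60.8 CPM and from 58.3 to 67.0 CPM, with a log2 fold change of 0.09 (SE 0.09). Trf (chr9:103081200-103107814) was close to the detection limit, with 7 to 24 counts per library in control and 7 to 18 in treated cells. Hamp (chr7:30641766-30643990) had 0 counts in every cell library but solvent replicate 2, which had 2.

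In 5 of the 10 genes the groups did not overlap, where 64.1% of all genes did not. Since the rule used this contrast, nothing is read from this count. The median log2 fold change of the 9 genes that passed the filter was 0.16, beside -0.01 over all genes. Other features of the same libraries also differed between the groups. Of 9 proliferation genes, 7 fell and Pcna alone rose, where 29.0% of all genes were called lower and 28.7% higher. The proliferation sum went from 1431 to 1672 CPM with solvent to 853 to 1037 CPM with esculetin. Of 6 macrophage markers 4 rose and 0 fell, beside the same shares, with Lyz2 higher by 2.45 on the log2 scale (adjusted p = 1.51e-06, edgeR). The part of these features in the iron gene values was not tested.

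**Figure D1:**
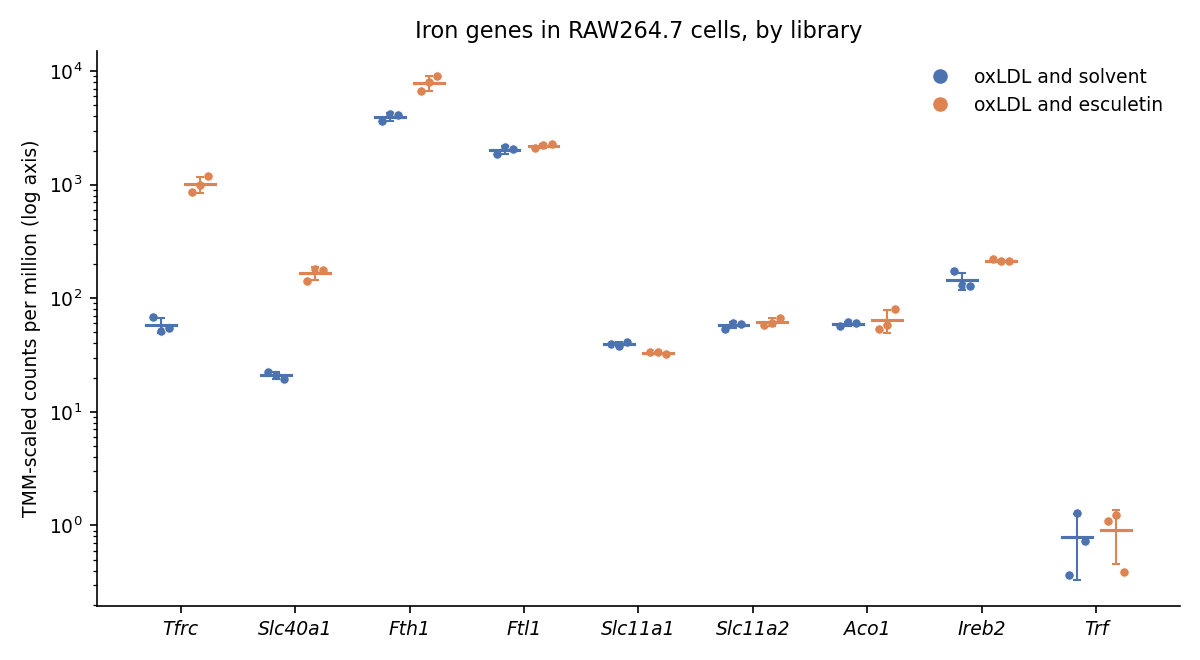
TMM-scaled CPM of 9 iron genes in RAW264.7 cells on a log axis, 1 point per library, with the mean as a line and the SD (n = 3) as a bar. Tfrc goes from 51.1 to 68.0 CPM with solvent to 855 to 1181 CPM with esculetin, and Ftl1 ranges overlap; Hamp is left out because it had 0 counts in all but one library.

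In high-fat-fed liver none of the 10 genes passed the test. With edgeR's quasi-likelihood test, 0 of 10 were called at an adjusted p of 0.05, 0 of 10 had an unadjusted p under 0.05, and DESeq2 and limma-voom also called 0. The background was low, with 0.0859% of 12813 genes called and 8.37% at an unadjusted p under 0.05. The groups overlapped in all 10, where 14.5% of all genes did not overlap. The median log2 fold change of the 10 was -0.10, beside -0.02 over all genes. Because this was whole liver, fewer cells of a type and less RNA per cell cannot be told apart.

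Tfrc was at 21.4, 9.03 and 9.73 CPM in the vehicle livers and 11, 9.22 and 9.25 CPM in the esculetin livers. Only vehicle replicate 1, the library apart on the first component, was high. The log2 fold change was -0.44 (SE 0.28, 95% interval -1.06 to 0.18, adjusted p = 0.697, edgeR), and without that library it was 0.07 (adjusted p = 0.921). Genes of red cell precursors, which carry much transferrin receptor, summed to 45.8 to 636 CPM in vehicle and 91.6 to 307 CPM in esculetin livers, and their part in the Tfrc values was not tested.

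Slc40a1 was at 83.8, 99.7 and 68.1 CPM with vehicle and 69.3, 75.1 and 69.6 CPM with esculetin, so the treated livers lay inside the control range. Its log2 fold change was -0.23 (SE 0.14, 95% interval -0.54 to 0.07, adjusted p = 0.680, edgeR). In these livers the 7 Kupffer cell markers, genes of the cells in which ferroportin is most abundant, summed to 403 to 507 CPM with vehicle and 398 to 441 CPM with esculetin, with 0 of 7 called.

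Fth1 was at 1534, 1858 and 2089 CPM with vehicle and 1928, 2184 and 2214 CPM with esculetin, with overlapping groups and a log2 fold change of 0.21 (SE 0.15, adjusted p = 0.727, edgeR). Ftl1 was at 1859, 2081 and 3173 CPM against 2029, 2020 and 2318 CPM, vehicle replicate 3 being the high one, with a log2 fold change of -0.16 (SE 0.19, adjusted p = 0.848). The ratio of Fth1 to Ftl1 counts was 0.825, 0.892 and 0.658 in vehicle livers and 0.95, 1.08 and 0.955 in esculetin livers. Every esculetin liver had the higher ratio, and the mean log2 ratio went from -0.35 ± 0.23 to -0.01 ± 0.11 (SD, n = 3), a difference of 0.34. The exact two-sided permutation test gave p = 0.1, the smallest that 3 against 3 can give, so 0.05 could not be reached by this test. Without vehicle replicate 3, the library with the most Ftl1, the difference was 0.21. Ftl1-ps1 held 1.18% to 2.40% of the Ftl1 count in liver, and adding the pseudogene loci left the difference at 0.34.

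The messages of the iron proteins that the liver secretes differed by less than the spread between libraries. Hamp, the hepcidin gene, was at 305, 383 and 275 CPM with vehicle and 288, 387 and 281 CPM with esculetin, a log2 fold change of -0.01 (SE 0.16, 95% interval -0.36 to 0.34, adjusted p = 0.992, edgeR). Hamp2, a close copy, had 0.147 to 0.349 counts for each Hamp count, and reads that fit both could have been split between them. Trf, the plasma iron carrier, was at 12896, 15903 and 15416 CPM and 13895, 13821 and 14734 CPM, a log2 fold change of -0.06 (SE 0.15, 95% interval -0.38 to 0.26, adjusted p = 0.934). The intervals of Hamp and Trf bound a change in either direction at about the log2 values given, and do not show that none occurred.

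The remaining genes of the set had log2 fold changes between -0.21 and 0.14 in liver. Slc11a2 gave -0.21 (SE 0.13, adjusted p = 0.692, edgeR) from 27.6 to 36.0 CPM with vehicle and 26.0 to 28.5 CPM with esculetin. Slc11a1 gave -0.14 (SE 0.20) from levels under 10 CPM, Aco1 0.14 (SE 0.12) from 252 to 314 CPM and 307 to 321 CPM, and Ireb2 0.11 (SE 0.17) from 20.2 to 31.4 CPM and 24.5 to 27.4 CPM.

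**Figure D2:**
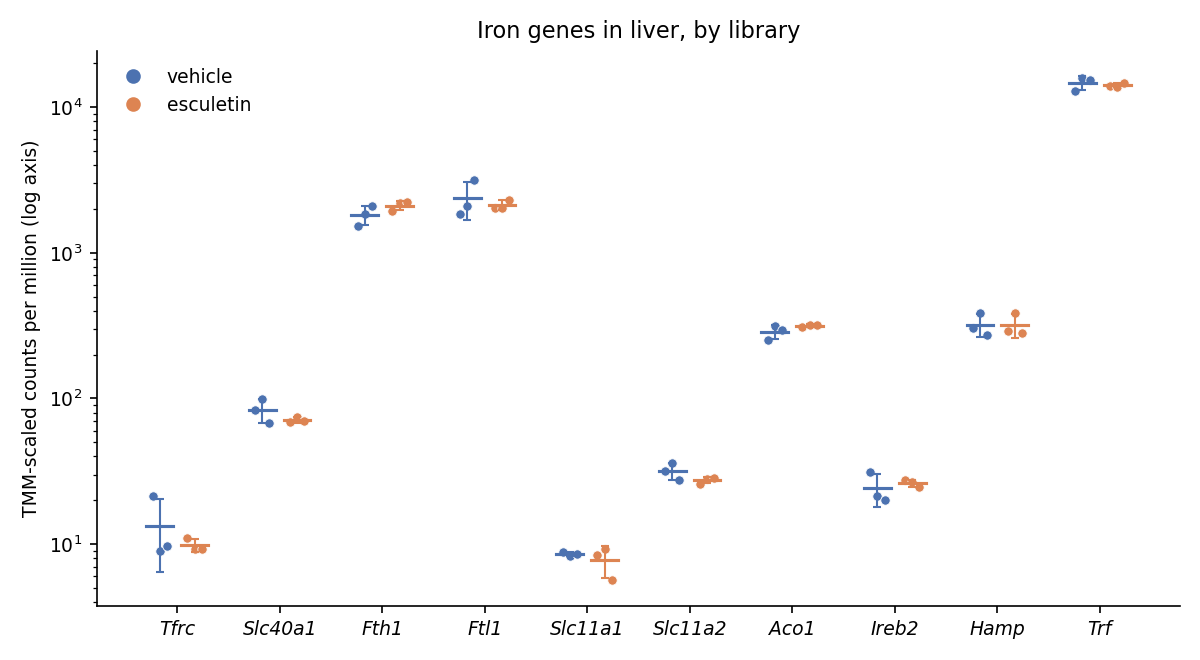
TMM-scaled CPM of the 10 iron genes in liver on a log axis, 1 point per library, with the mean as a line and the SD (n = 3) as a bar. The groups overlap for each gene, and Tfrc of vehicle replicate 1 stands at 21.4 CPM while the other 5 livers lie between 9.03 and 11 CPM.

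**Figure D3:**
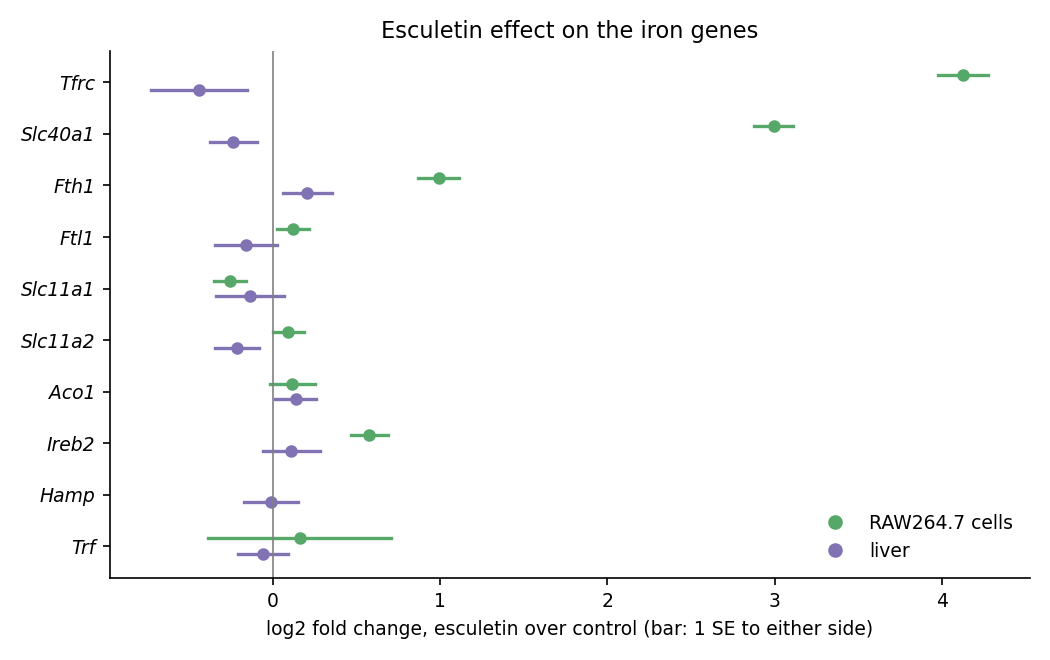
Log2 fold change of esculetin over control for each iron gene, in cells (9 genes) and in liver (10 genes), with a bar of 1 SE to either side. In cells the points go from Slc11a1 at -0.25 to Tfrc at 4.12, and in liver from Tfrc at -0.44 to Fth1 at 0.21.

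The order of the levels per length was not the same in liver and cells. In control livers, in TPM (library-scaled transcript levels, from counts over the union of annotated exons), Trf was highest at 8835 ± 635 (SD, n = 3), before Ftl1 at 5975 ± 1319, Fth1 at 1765 ± 140, Hamp at 1238 ± 249, Aco1 at 125 ± 10.1 and Slc40a1 at 30.6 ± 6.92. Each of these was separated from the next. Slc11a2 (9.87), Ireb2 (7.48), Slc11a1 (7.38) and Tfrc (6.64) closed the order, and neighbours among them overlapped. In control cells Ftl1 led at 6272 ± 436 TPM and Fth1 followed at 4681 ± 308, after which came Ireb2 at 53.0, Slc11a1 at 41.3, Tfrc at 34.2, Aco1 at 31.3, Slc11a2 at 21.7 and Slc40a1 at 9.22 TPM. Slc11a1 overlapped with Tfrc and Tfrc with Aco1. With esculetin the order in the cells was different at the top: Fth1 stood highest at 8989 ± 1372 TPM, before Ftl1 at 6586 ± 361 and Tfrc at 575 ± 93.2 TPM, and Slc40a1 (71.0) lay beside Ireb2 (76.3), with overlapping libraries. In the esculetin livers the order was the one of the control livers.

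**Figure D4:**
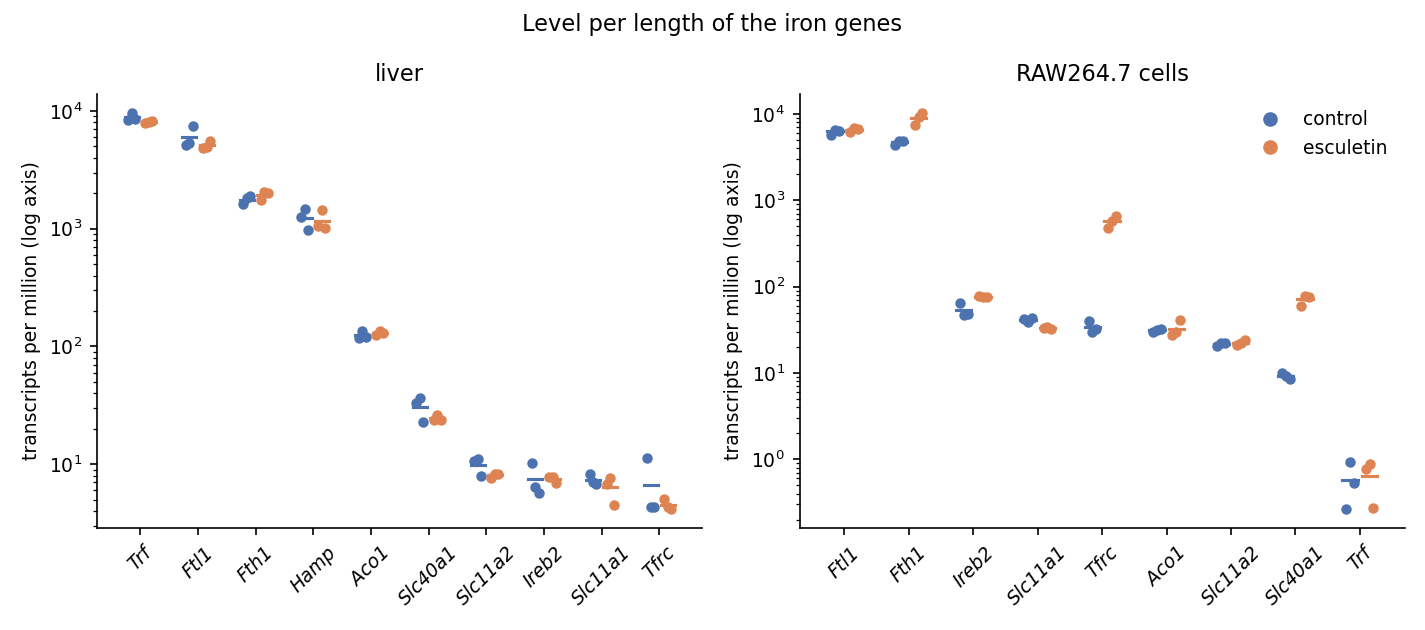
TPM of the iron genes in liver (left) and RAW264.7 cells (right) on a log axis, ordered by the control mean, with 1 point per library and the mean as a line (n = 3). In liver both groups follow the same order from Trf to Tfrc, and in cells Tfrc goes from 34.2 to 575 TPM and Slc40a1 from 9.22 to 71.0 TPM.

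Control liver and control cells differed in most of these genes, as they did in 84.7% of the 14861 genes tested, and tissue, culture, oxLDL and diet cannot be told apart in this comparison. Of the 10 genes, 9 were called, 6 higher in liver, where 42.9% of all genes were, and 3 lower, where 41.9% were. The 6 include Trf and Hamp, and Hamp passed the filter only through its liver counts, so nothing is read from this count. Against cells, liver had more Aco1 (log2 difference 3.66, SE 0.13, adjusted p = 1.52e-09, edgeR), Slc40a1 (3.39, SE 0.16, adjusted p = 9.50e-09) and Ftl1 (1.62, SE 0.21, adjusted p = 3.95e-05), and less Ireb2 (-1.17, SE 0.19, adjusted p = 0.000168) and Slc11a1 (-0.82, SE 0.13, adjusted p = 0.000150). For the secreted proteins the fitted values depend on counts near 0 in the cells, so pooled counts are given instead. Hamp had 17439 counts in the 3 control livers and 2 in the 3 control cell libraries, a ratio per total count of 9435 (exact 95% interval 2612 to 77915), and Trf had 796824 against 46, a ratio of 18744 (14052 to 25602). These intervals cover counting error only. Tfrc and Slc40a1 were chosen through these same control cell libraries, so their p-values in this comparison are not independent of that choice.

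This comparison depends on how liver and cells are put on 1 scale. By library size alone the median of all genes moved from -0.01 to -1.40 on the log2 scale, and the calls from 6369 higher and 6225 lower in liver to 3930 higher and 9496 lower. Fth1 then turned from 0.27 (adjusted p = 0.149) to -1.13 (adjusted p = 1.41e-05, edgeR) and Slc11a2 from 0.52 (adjusted p = 0.00353) to -0.86 (adjusted p = 0.000333), and Ftl1 went to 0.21 (adjusted p = 0.251). With upper quartile factors Slc11a2 was at 0.29 (adjusted p = 0.0625), and with DESeq2 Fth1 was called at 0.40 (adjusted p = 0.0229). Tfrc was lower in liver under every scaling, from -0.62 to -2.09, with an adjusted p of 0.0379 at the main setting of -0.73, but the call was lost without vehicle replicate 2 (-0.49, adjusted p = 0.157), vehicle replicate 3 (-0.53, 0.113), solvent replicate 1 (-0.62, 0.120) or solvent replicate 3 (-0.77, 0.0541). For Fth1, leaving out vehicle replicate 1 brought a call, at 0.44 (adjusted p = 0.00221).

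Beyond the 10 genes, 84 further iron genes in 7 lists were examined: hepcidin control, other iron uptake, haem and haemoglobin recycling, ferritin turnover with iron chaperones and ferroxidases, mitochondrial iron and iron-sulphur clusters, haem synthesis, and other messages known to carry IREs. In cells 64 passed the filter, and 40 of them were called, 20 higher and 20 lower, beside 57.7% of all genes called (28.7% higher and 29.0% lower). Their median log2 fold change was -0.12, beside -0.01 over all genes. In liver 0 of 79 were called by edgeR, DESeq2 or limma-voom, and 8 of 79 had an unadjusted p under 0.05, beside 8.37% of all genes. The test of the difference between the effects in cells and liver called 31 of 80, 13 with the larger value in cells and 18 with the smaller, beside 27.1% of all genes (13.4% and 13.7%). Only 64 of the further genes passed the filter in cells, so some of the 80 entered this test through their liver counts alone. Hjv and Bmp2, for example, had 0 counts in every cell library. Nothing is therefore read from the count of 31. By the study's thresholds in limma, a p under 0.05 and a fold change over 1.5, applied here to unadjusted p after voom, 25 of 64 were counted in cells, beside 38.0% of all genes, and 3 of 79 in liver, beside 3.89%.

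Haem and haemoglobin recycling held the largest rise among these lists. In cells 7 of its 11 genes were tested, of which 4 rose and 1 fell, beside 28.7% of all genes called higher and 29.0% lower. Hmox1, the haem oxygenase that frees iron from haem, was at 318, 360 and 362 CPM with solvent and 3582, 4759 and 6500 CPM with esculetin. No library overlapped, and it rose by 3.84 on the log2 scale (SE 0.20, adjusted p = 1.15e-07, edgeR). In liver it was at 20.2 to 30.4 CPM with vehicle and 19.4 to 20.9 CPM with esculetin, a log2 fold change of -0.33 (SE 0.16, adjusted p = 0.622), and the effects differed by 4.12 (SE 0.27, adjusted p = 1.42e-07). The 2 biliverdin reductases, which act on the next product of haem breakdown, went opposite ways in cells: Blvra rose by 1.43 (SE 0.18, adjusted p = 4.53e-05) and Blvrb fell by 0.87 (SE 0.10, adjusted p = 2.20e-05). Hmox2 and Hp, the other liver genes of this list with the smallest p, had log2 fold changes of 0.24 and 0.17 there, with adjusted p of 0.693 and 0.767 (edgeR).

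In hepcidin control, 15 of 19 genes were tested in cells, of which 8 rose and 3 fell, beside 28.7% and 29.0% of all genes. Id1, a target of bone morphogenetic protein signalling, rose by 1.94 (SE 0.38, adjusted p = 0.00112, edgeR) from 1.12 to 1.97 CPM to 3.00 to 8.64 CPM, and Acvr1, a receptor of that pathway, rose by 0.57 (SE 0.12, adjusted p = 0.00148). Tmprss6, the hepatocyte protease that restrains hepcidin, had 34 to 49 counts per solvent library and 0 to 2 with esculetin, and was lower (adjusted p = 4.04e-05). With 131 counts pooled over the solvent libraries and 3 over the esculetin libraries, the esculetin-to-solvent ratio per total count was 0.0276 (exact 95% interval 0.00561 to 0.0823, counting error only). In liver Id1 was at 7.52 to 11.8 CPM with vehicle and 2.62 to 7.12 CPM with esculetin, a log2 fold change of -0.75 (SE 0.32, adjusted p = 0.556; -0.41 without esculetin replicate 1), Smad6 at -0.40 (SE 0.17, adjusted p = 0.556) and Bmp6, the ligand from sinusoidal endothelium, at 0.48 (SE 0.21, adjusted p = 0.569). The difference between cells and liver was called for 7 of 19, beside 27.1% of all genes, although only 15 of the 19 passed the filter in cells. Among the 7 were Id1 at 2.65 (adjusted p = 0.00204) and the transferrin sensor Tfr2 at -1.55 (adjusted p = 0.00349).

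Of the other uptake genes, 4 of 11 were tested in cells, with 1 higher and 2 lower, beside 28.7% and 29.0% of all genes. Slc39a14, a zinc and iron importer, was at 36.6, 32.7 and 31.6 CPM with solvent and 89.5, 106 and 111 CPM with esculetin, and rose by 1.6 (SE 0.11, adjusted p = 5.71e-07, edgeR). Cybrd1, a ferric reductase, fell by 2.09 from about 1 CPM (SE 0.54, adjusted p = 0.00587), and the endosomal reductase Steap3, which serves transferrin-bound iron, fell by 0.49 (SE 0.16, adjusted p = 0.0236). The Steap3 call was lost without solvent replicate 2 (-0.50, adjusted p = 0.0548), solvent replicate 3 (-0.44, 0.0829) or esculetin replicate 1 (-0.34, 0.0609). In liver Steap3 gave 0.42 (SE 0.15, adjusted p = 0.473), Lcn2, a carrier of siderophore iron, 0.87 (SE 0.33, adjusted p = 0.513) and the ferritin receptor Scara5 1.35 (SE 0.55, adjusted p = 0.544). Lcn2 went to 0.45 without esculetin replicate 1 and Scara5 to 0.37 without esculetin replicate 3. The effects in cells and liver differed for Slc39a14 by 1.85 and for Steap3 by -0.95 (adjusted p = 4.71e-06 and 0.00458, edgeR). Slc39a8 differed by 2.88 (adjusted p = 0.00429, edgeR) from cell levels of at most 1.56 CPM. It did not pass the filter in cells and entered this test through its liver counts, so nothing is read from its value.

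Ferritin turnover and iron chaperones gave 5 tested genes of 8 in cells, with 0 higher and 3 lower, beside 28.7% and 29.0% of all genes. Pcbp2, a cytosolic iron chaperone, fell by 0.73 (SE 0.08, adjusted p = 1.72e-05, edgeR). Ncoa4, which carries ferritin to the lysosome, fell by 0.25 (SE 0.08, adjusted p = 0.0223), and Fbxl5, which marks iron regulatory proteins for degradation, fell by 0.31 (SE 0.11, adjusted p = 0.0285). The last 2 were not stable: the Ncoa4 call was lost without solvent replicate 3 (adjusted p = 0.0723) or esculetin replicate 1 (0.0556), and the Fbxl5 call without solvent replicate 1 (0.109), solvent replicate 2 (0.0525) or esculetin replicate 3 (0.0746). In liver Heph (-0.75), Pcbp2 (0.18) and Pcbp1 (0.12) had the smallest p of this list, with adjusted p of 0.661, 0.764 and 0.811. Only Pcbp2 differed between cells and liver (-0.95, adjusted p = 0.000921), while Fbxl5 had -0.47 (adjusted p = 0.0704) and Pcbp1 -0.21 (adjusted p = 0.352).

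The mitochondrial list had all 23 genes tested in cells, of which 5 rose and 8 fell, beside 28.7% and 29.0% of all genes. Cisd2, an iron-sulphur protein of the endoplasmic reticulum and mitochondria, was at 18.2 to 18.7 CPM with solvent and 51.2 to 52.9 CPM with esculetin, and rose by 1.5 (SE 0.10, adjusted p = 4.48e-07, edgeR). Its relative Cisd1 went the other way, from 78.2 to 84.4 CPM to 43.6 to 46.0 CPM, and fell by 0.85 (SE 0.08, adjusted p = 8.38e-06). Iba57, which helps to assemble clusters, rose by 1.25 (SE 0.14, adjusted p = 2.74e-05). In liver Cisd1, Nfs1 and Hscb had log2 fold changes of 0.33, 0.27 and 0.53, with adjusted p of 0.537, 0.629 and 0.636. The effects differed between cells and liver for 11 of 23, beside 27.1% of all genes. Among the 11 were Cisd1 by -1.22, Cisd2 by 1.40 and Iba57 by 1.33 (adjusted p = 5.05e-05, 6.67e-05 and 0.000233).

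In haem synthesis, 10 of 11 genes were tested in cells, with 2 higher and 3 lower, beside 28.7% and 29.0% of all genes. Cpox, Urod and the mitochondrial glycine carrier Slc25a38 fell by 0.84, 0.63 and 0.68 on the log2 scale (adjusted p = 5.95e-05, 0.000697 and 0.000734, edgeR). In liver Alas1, the first enzyme of haem synthesis in hepatocytes, was at 149, 78.0 and 111 CPM with vehicle and 300, 164 and 158 CPM with esculetin. These groups did not overlap, and its log2 fold change of 0.88 (SE 0.26, unadjusted p = 0.00530) missed the threshold at an adjusted p of 0.334 (edgeR). It passed only in the fit with the replicate number as a block (adjusted p = 0.00267, edgeR) and without the filter on low counts (5.96e-08, edgeR). Those 2 settings raised the calls over all liver genes from 11 to 123 and to 339. Over all alternatives the log2 fold change of Alas1 ranged from 0.50 without esculetin replicate 1 to 1.14 without vehicle replicate 1. Ppox and Slc25a38 gave -0.29 and 0.24 in liver, with adjusted p of 0.683 and 0.686. The difference between cells and liver was called for 4 of 11, beside 27.1% of all genes. The 4 included Slc25a38 at -0.96, Urod at -0.67 and Cpox at -0.65 (adjusted p = 0.00204, 0.0150 and 0.0280). The Urod call was lost without esculetin liver replicate 3 (adjusted p = 0.0523). The Cpox call was lost by library size (adjusted p = 0.0864) and without vehicle liver replicate 3 (-0.43, adjusted p = 0.0635), any 1 of the esculetin livers (0.0762 to 0.0777), solvent cell replicate 2 (0.0575) or 3 (0.0630), or esculetin cell replicate 2 (0.0623) or 3 (0.0725).

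From the list of other messages known for an IRE, 2 genes are reported. Alas2, the haem synthesis enzyme of red cell precursors, and Epas1, an oxygen-regulated transcription factor, did not pass the filter on low counts in cells. In liver they had log2 fold changes of 0.21 and -0.13, with adjusted p of 0.805 and 0.839 (edgeR). The difference between cells and liver was -1.30 for Alas2 (adjusted p = 0.283) and 3.31 for Epas1 (adjusted p = 0.0786), both from cell counts near 0, and the Epas1 value was called without esculetin liver replicate 2 (3.56, adjusted p = 0.0486) or esculetin cell replicate 1 (3.75, 0.0435).

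**Figure D5:**
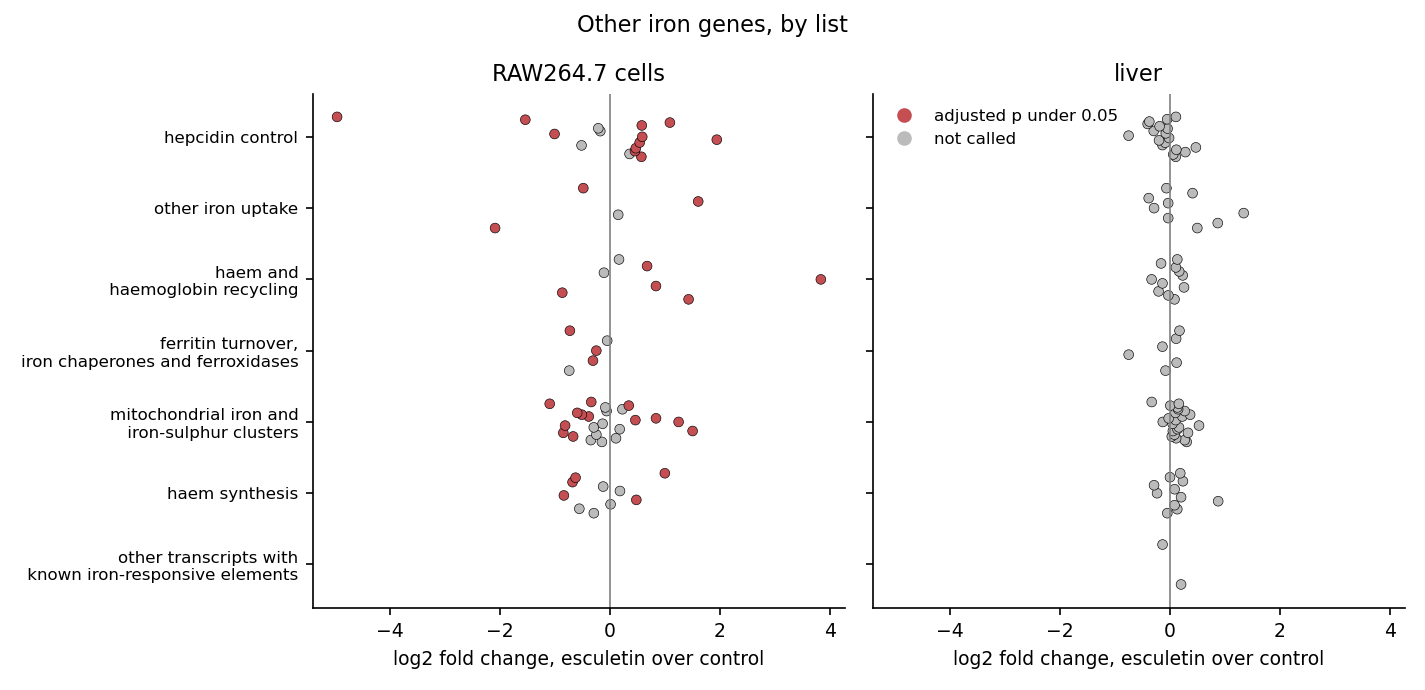
Log2 fold change of esculetin over control for the further iron genes, 1 point per tested gene by list, in cells (left) and liver (right), with genes at an adjusted p under 0.05 in red. In cells 40 of 64 points are red, with Hmox1 at 3.84 the highest, and in liver 0 of 79 are.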

How the data were processed

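Per the study's methods, the authors made NEBNext Ultra libraries from Trizol RNA, sequenced 150-bp read pairs on a NovaSeq, mapped them to GRCm39 with HISAT 2.2.1 and counted reads per gene with featureCounts. The submitters' notes also name mm10. Strand setting, multi-mapped reads and annotation release are not given in the sources used here, so reads of overlapping antisense genes could not be told apart. Those with counts of their own had at most 14 per library. The antisense genes that overlap Tfrc, Slc40a1 and Trf had no counts of their own in the deposited data, so their share could not be checked. The deposited values are raw counts, 1 table for liver and 1 for cells. Of 55357 identifiers, 54749 matched the GENCODE annotation of GRCm39 used for symbols, lengths and UTRs.

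Differences were tested with edgeR 4.0.16 (R 4.3.3): filterByExpr, TMM factors, quasi-likelihood test, Benjamini-Hochberg adjustment over all genes tested, calls at an adjusted p of 0.05. The difference between cells and liver was an interaction term over all 12 libraries. Fits were run on simulated counts with known changes and the same spread for every gene in both tissues. A library standing apart, as in liver, was not simulated, so this run does not speak to the sensitivity of the liver fits. Per-library CPM are scaled by TMM within a tissue, and TPM use union exon length. DESeq2 1.42.0, limma 3.58.1, other scalings and filters, the study's limma thresholds (p under 0.05 and fold change over 1.5; voom and the unadjusted p were chosen here), a replicate block and leaving out each library were the alternatives. Exact permutation tests used scipy 1.17.1.

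The genes and lists were chosen with earlier results of these data known, and 2 genes of the lists are not reported here. Named are all 10 genes and, per list and comparison, up to 3 genes with the smallest p, plus markers beside a result and the ferritin pseudogene with the most counts. Same-numbered control livers and control cells deviated together (correlations of 0.39, 0.14 and 0.17) although they share no animal or culture. Differently numbered ones had correlations from -0.30 to 0.21. The block changed no call of the 10 genes there. Counting limits the precision of Trf and Hamp in cells, and intervals on counts cover counting error only.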

Additional observations from a re-analysis of the deposited data

Results flagged for a closer look

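Of the named genes outside the core set, 16 differed between cells and liver by the interaction test (edgeR, adjusted p under 0.05), which flagged them. Named genes were picked partly by their p in this same test, so that count follows from the choice. Among all further genes 31 of 80 were called, beside 27.1% of all genes, and some of the 80 entered the test through their liver counts alone. The log2 effect in cells minus that in liver was above 0 for Hmox1 (4.12), Slc39a8 (2.88), Id1 (2.65), Slc39a14 (1.85), Cisd2 (1.40), Iba57 (1.33) and Blvra (1.30). It was below 0 for Tmprss6 (-5.06), Tfr2 (-1.55), Cisd1 (-1.22), Slc25a38 (-0.96), Pcbp2 (-0.95), Steap3 (-0.95), Blvrb (-0.89), Urod (-0.67) and Cpox (-0.65). The values of Tmprss6, Tfr2, Id1 and Slc39a8 rest on cell levels of at most 8.64 CPM, and Slc39a8 did not pass the filter on low counts in cells. Dose, route, time, oxLDL and diet differed between the 2 experiments and cannot be told apart from the tissue.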

How the results depend on the processing

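Of 103 recomputed counts, ratios and orders, 99 kept their side or stayed within 1.5 times. For the further iron genes in liver, 0 of 79 calls became 4 of 81 without the filter on low counts (Alas1, Id1, Lcn2 and Scara5), where 339 of 22343 genes were called. By the study's thresholds 3 of 79 were counted, beside 3.89% of all genes. With the replicate block 1 of 79 was called (Alas1), where 123 of 12813 genes were. In cells 40 of 64 calls, beside 57.7% of all genes, became 25 by the study's thresholds, beside 38.0%. Leaving out 1 library gave 0 to 0 calls of the 10 genes and of the further genes in liver, 35 to 42 of the further genes in cells, 8 to 10 of the 10 genes for control liver against control cells, 26 to 35 for the difference between cells and liver, and 0.21 to 0.43 for the log2 ratio of Fth1 to Ftl1 in liver. The cause was not tested.

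In liver these log2 fold changes, with no call before or after, changed sign: Tfrc to 0.075 without vehicle replicate 1, Ftl1 to 0.090 and Ireb2 to -0.025 without vehicle replicate 3, Slc11a1 to 0.036 without esculetin replicate 3, Hamp to 0.14, 0.046 and 0.061 without vehicle replicate 2, esculetin replicate 1 or esculetin replicate 3, and Alas2 to -0.0079 without vehicle replicate 1. Over the libraries left out in turn, the ranges were -0.66 to 0.075 for Tfrc, -0.30 to 0.090 for Ftl1, -0.29 to 0.036 for Slc11a1, -0.18 to 0.14 for Hamp, -0.0079 to 0.35 for Alas2 and -0.025 to 0.34 for Ireb2. In cells Trf, near the detection limit, changed sign too, from 0.16 to -0.18, -0.012 and -0.14 without solvent replicate 1, esculetin replicate 1 or esculetin replicate 2. Between control liver and control cells, library size alone turned Fth1 to -1.13 and Slc11a2 to -0.86.

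The deviations of samples of the same number had correlations of 0.16, -0.01 and 0.12 in liver and 0.20, -0.04 and 0.13 in cells. Differently numbered samples had correlations from -0.18 to 0.12 in liver and from -0.23 to 0.15 in cells, so the numbers were not taken as pairs. With the replicate block, the call of no other named gene changed besides Alas1 in liver, all liver calls went from 11 to 123, the 10 genes stayed at 0 calls in liver, and the ferritin log2 ratio stayed at 0.34 (exact sign permutation p = 0.25, the smallest possible). With the block, 33 further genes differed between cells and liver against 31. All liver calls numbered 11 in edgeR, 98 in DESeq2 and 339 without the filter. The order of levels kept 18 of 20 positions with the longest transcript as length. With 3 libraries a group, a change of Hamp or Trf in liver smaller than the stated intervals could not be detected.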
